A study of Homo sapiens with 6 samples.

Results

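Chaperonins are barrel-shaped protein-folding machines, and their 10 genes in the human cytosol and mitochondria were followed here in THP1 cells, a human acute monocytic leukemia line, after exposure to withaferin A (WFA). The genes were chosen by name, with earlier results of these data known. They comprise the 8 subunits of the cytosolic TRiC/CCT complex (TCP1, CCT2, CCT3, CCT4, CCT5, CCT6A, CCT7 and CCT8). They also include the mitochondrial pair of HSPD1, which encodes HSP60, and HSPE1, which encodes its lid HSP10. All 10 were found among the 26485 gene rows of the count table. WFA is a steroidal lactone from Withania somnifera that reacts with protein thiols, and the study exposed cells for 6 h to WFA or to DMSO, its vehicle, with 3 libraries per group from 3 independent experiments. The sample labels give the WFA concentration as 1 mM, whereas the study's methods give 1 μM. Libraries were made from total RNA of whole cultures, so less RNA per cell and fewer cells that transcribe a gene cannot be told apart.

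TRiC is built from stacked rings in which each subunit holds its own place, and it encloses newly made actin, tubulin and many propeller-shaped proteins until they are folded. It receives part of these clients from prefoldin and works with phosducin-like proteins. HSP60 and HSP10 act in the mitochondrial matrix, downstream of the mitochondrial HSP70 (HSPA9), on proteins that have just been imported. The HSPD1 and HSPE1 genes lie head to head and are transcribed away from each other, and both are known heat shock genes that HSF1 binds.

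In these libraries 9 of the 10 chaperonin genes passed a threshold of 0.05 upward with WFA and none passed it downward, by p-values from edgeR's quasi-likelihood test that were Benjamini-Hochberg adjusted over 12854 tested genes. Of all tested genes, 25.8% were called higher and 24.7% lower. The count of chaperonin genes called lower was 0 also by DESeq2 and at an unadjusted p-value under 0.05. For 9 of the 10 each WFA library lay above each DMSO library, which was so for 29.6% of all tested genes. The mitochondrial pair rose most, by 3.82-fold for HSPD1 and 3.77-fold for HSPE1. The TRiC subunits spanned a range from TCP1, which rose by 1.91-fold, down to CCT8, which was not called (fold 0.945, 95% interval 0.828 to 1.08). The median log2 fold change was 1.92 for the pair and 0.50 for the TRiC subunits, against 0.02 for all tested genes.

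**Figure D1:**
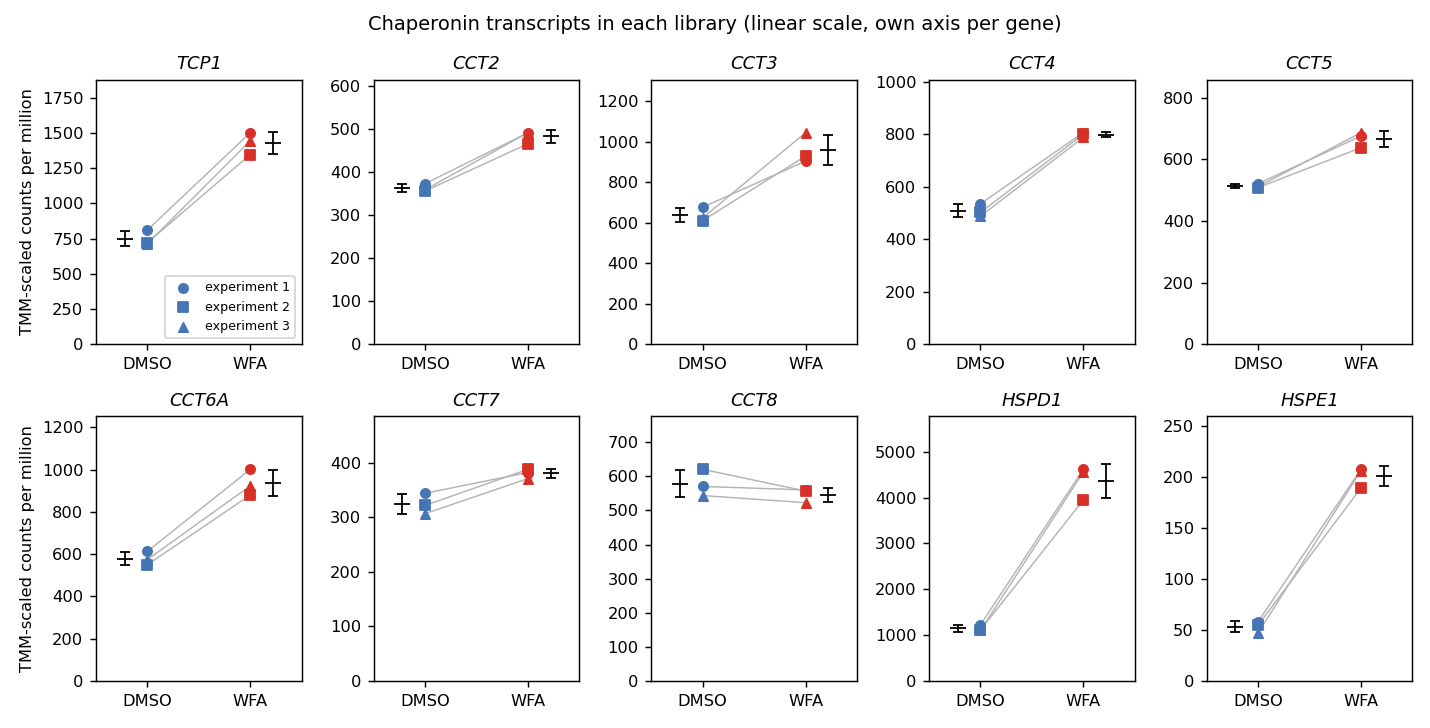
CPM (counts scaled to library size with TMM factors) on a linear axis from 0 for each of the 10 chaperonin genes in the 3 DMSO (blue) and 3 WFA (red) libraries. Marker shapes and grey lines join libraries of the same experiment, and black bars give the mean and SD of the group. The groups overlap only for CCT8, and HSPD1 moves from between 1101 and 1222 to between 3947 and 4618.5.

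Total counts were between 11006035 and 13872810 per library. The 10 genes took up 0.561% ± 0.0229 of all counts with DMSO and 1.05% ± 0.0526 with WFA (SD, n = 3 each). The cell line's label was checked with 8 monocytic and myeloid markers, of which 8 averaged over 1 CPM, with a summed level of 2399 to 2903 with DMSO and 2038 to 2797 with WFA. LYZ made up most of that sum, and of the 8 markers 4 were called lower with WFA (CD14, CD33, CSF1R and SPI1) and 1 higher (CD68). The summed levels of 4 T cell, 4 erythroid and 4 epithelial markers stayed at or under 1.08 CPM in each library. The 4 B cell markers summed to 1.59 to 1.92 with DMSO and 3.28 to 3.78 with WFA. The part of these markers in the results was not tested. No 2 libraries of a group were near duplicates, since their counts differed with chi-square values of 5.67 or more per gene.

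Promoter sequences are shown for the genes at both ends of the response, the mitochondrial pair and TCP1 against CCT8. RefSeq windows of 300 bases, from 250 before to 50 after an annotated transcript start (build GRCh38.p14), were matched for 9 of the 10 genes, CCT6A being the other. They were searched on both strands for the heat shock element, whose units GAA and TTC alternate in opposite orientation, as GAANNTTC, as TTCNNGAA, and as a longer element in which 3 such units follow each other with 2 bases of any kind between them. The E-box CACGTG and the ATF4 element TGATGNAA were also searched. Matches to the longer element overlap matches to the shorter ones. Capitals mark the matched bases, and each window is written 5′ to 3′ on the strand of its gene.
HSPD1, chr2:197499791-197500090, minus strand: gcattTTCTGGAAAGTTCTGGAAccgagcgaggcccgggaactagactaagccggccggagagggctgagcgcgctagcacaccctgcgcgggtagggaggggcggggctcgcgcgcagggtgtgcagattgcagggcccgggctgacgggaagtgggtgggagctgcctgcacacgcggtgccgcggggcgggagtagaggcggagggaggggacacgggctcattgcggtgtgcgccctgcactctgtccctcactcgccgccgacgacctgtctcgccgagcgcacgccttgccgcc
HSPE1, chr2:197500129-197500428, plus strand: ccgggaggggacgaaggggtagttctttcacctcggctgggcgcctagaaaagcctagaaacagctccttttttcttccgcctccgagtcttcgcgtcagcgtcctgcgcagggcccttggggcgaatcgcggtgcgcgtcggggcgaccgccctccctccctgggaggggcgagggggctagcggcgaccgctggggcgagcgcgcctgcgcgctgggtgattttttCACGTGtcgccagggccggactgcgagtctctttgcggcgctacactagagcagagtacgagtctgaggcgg
TCP1, chr6:159789553-159789852, minus strand: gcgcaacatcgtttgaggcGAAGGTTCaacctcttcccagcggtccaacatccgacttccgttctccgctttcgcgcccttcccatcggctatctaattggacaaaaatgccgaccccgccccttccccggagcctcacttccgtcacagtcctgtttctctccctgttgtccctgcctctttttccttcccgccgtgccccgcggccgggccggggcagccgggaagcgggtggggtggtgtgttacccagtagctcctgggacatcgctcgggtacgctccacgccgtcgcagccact
CCT8, chr21:29073599-29073898, minus strand: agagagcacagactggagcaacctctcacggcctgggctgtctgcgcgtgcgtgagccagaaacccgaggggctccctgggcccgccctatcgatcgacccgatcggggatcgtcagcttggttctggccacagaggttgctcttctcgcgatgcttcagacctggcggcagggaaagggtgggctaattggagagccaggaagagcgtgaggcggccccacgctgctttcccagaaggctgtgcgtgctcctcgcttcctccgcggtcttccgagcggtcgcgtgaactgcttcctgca

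The HSPD1 window held an unbroken run of 4 heat shock units in 18 bases, TTCTGGAAAGTTCTGGAA, at chr2:197500068-197500085. The run lies 228 to 245 bases before that HSPD1 start and 294 to 311 bases before the HSPE1 start, which is outside the HSPE1 window. It lies 189 to 206 bases after the start of a second HSPD1 window, and that start is 105 bases from the HSPE1 start. The longer element was found in 0.490% of 35116 windows of this length and in 0.608% of the 27305 genes that have one, some genes having several windows. It was found in 1 of the 9 chaperonin genes with a window. That second HSPD1 window, which is not printed here, and the HSPE1 window overlap, and neither held a heat shock match. Both hold the same CACGTG, at chr2:197500357-197500362, a motif found in 7.26% of all windows and 8.78% of genes. TCP1 held 1 short match, GAAGGTTC, at bases -231 to -224 from its start, and CCT2 and CCT4 each held 1 short match in 1 of their windows. GAANNTTC was found in 6.77% of all windows and 8.21% of genes, and TTCNNGAA in 7.74% of windows and 9.46% of genes. The windows of CCT3, CCT5, CCT7 and CCT8 held none of these letters, and TGATGNAA, present in 3.62% of all windows and 4.46% of genes, was found in none of the 9 genes. A match in such a window is a description of the sequence and not a measured binding site.

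HSPD1 gave 1222, 1111 and 1101 CPM in DMSO replicates 1, 2 and 3. With WFA it gave 4618.5, 3947 and 4557.5 CPM. The lowest WFA library was thus well above the highest DMSO library. Among all genes ranked by count within a library, HSPD1 stood between places 56 and 69 with DMSO and between places 12 and 14 with WFA. The log2 fold change of HSPD1 was 1.93 (standard error, SE, 0.11, adjusted p in edgeR = 2.89e-09), and 2.05% of tested genes had a larger one.

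HSPE1 gave 58.0, 54.6 and 47.0 CPM in DMSO replicates 1, 2 and 3, and 208, 189 and 206 CPM with WFA. Here too the groups were far apart. Its log2 fold change was 1.92 (SE 0.10, adjusted p in edgeR = 1.08e-09), and 2.12% of tested genes had a larger one. The log2 ratio of HSPE1 to HSPD1 counts within a library was -4.43 ± 0.107 with DMSO and -4.44 ± 0.0513 with WFA (SD, n = 3 each). The WFA ratio differed from the DMSO ratio by -0.080, -0.037 and 0.085 in the experiments of replicates 1, 2 and 3. By exact permutation of the libraries (two-sided) the p-value was 1, but 3 libraries against 3 cannot go below 0.1, so this test could not have called a change of any size.

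The level of HSPE1 relative to the other genes is uncertain. In GENCODE 29, HSPE1 (chr2:197499994-197503457, plus strand) has a principal transcript of 950 bases in 4 exons, of which 192 bases are shared with the read-through gene HSPE1-MOB4 and 281 with exons of HSPD1 on the other strand, which leaves 477 bases of its own. HSPE1-MOB4 was listed at 0 in each of the 6 libraries, and MOB4, the gene at the other end of the read-through, had between 6 and 10 counts. A listing at 0 does not show that a gene was not transcribed, since how reads on shared sequence were counted is not given in the sources used here. Per kilobase of the principal transcript, HSPE1 stood at 56.0 ± 5.95 CPM per kb with DMSO and 212 ± 10.8 with WFA (SD, n = 3 each). Per kilobase of its unshared bases these levels were 112 ± 11.9 and 421 ± 21.4. HSPD1 (chr2:197486581-197516737, minus strand) stood at 466 ± 27.3 and 1782 ± 151 CPM per kb of its 2455-base principal transcript (SD, n = 3 each), above each TRiC subunit in both groups.

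TCP1, which encodes the alpha subunit of TRiC, had the largest change in the complex. It gave 810, 721 and 713 CPM in DMSO replicates 1, 2 and 3 and 1502, 1346 and 1444 CPM with WFA, with no overlap between the groups. The log2 fold change was 0.94 (SE 0.10, adjusted p in edgeR = 1.52e-06), just under 2-fold, a size past which 8.11% of all tested genes were called higher. The gene (chr6:159778498-159789749, minus strand) ends tail to tail with ACAT2, and 397 bases of its 2499-base principal transcript are shared with ACAT2 exons on the other strand. ACAT2 had 71.9 ± 3.24 CPM with DMSO and 69.3 ± 5.07 with WFA (SD, n = 3 each; log2 fold change -0.06, edgeR adjusted p = 0.63).

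CCT6A (zeta), CCT4 (delta) and CCT3 (gamma) followed, with rises of 1.61-, 1.57- and 1.51-fold. CCT6A gave 613, 550.0 and 574 CPM with DMSO and 1001.5, 880.05 and 923 CPM with WFA. CCT4 gave 536, 502 and 488 CPM with DMSO and 807, 801 and 789 CPM with WFA. For both genes each WFA library exceeded each DMSO library. The log2 fold changes were 0.69 for CCT6A (SE 0.09, adjusted p in edgeR = 2.12e-05) and 0.65 for CCT4 (SE 0.09, adjusted p in edgeR = 1.94e-05). The pseudogenes CCT6P1 and CCT6P3, whose reads can resemble those of CCT6A, held at most 85 counts in any library, against at least 6893 for CCT6A. The pseudogenes HSPD1P1 to HSPD1P6 and CCT8P1 had no row in the count table, so the same check was not possible for HSPD1 and CCT8.

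CCT3 differed between experiments. It gave 676, 611 and 624 CPM with DMSO and 904.5, 929.5 and 1045 CPM with WFA, again without overlap. Its log2 difference between WFA and DMSO was 0.42, 0.61 and 0.74 in the experiments of replicates 1, 2 and 3, while that of CCT6A stayed between 0.68 and 0.71. The edgeR log2 fold change of CCT3 was 0.59 (SE 0.09, adjusted p in edgeR = 0.000107). Unlike HSPD1 and HSPE1, the subunit genes are scattered over the genome. In GENCODE 29, CCT6A lies at chr7:56051630-56063989 (plus strand), CCT4 at chr2:61868089-61888804 (minus strand) and CCT3 at chr1:156308968-156367873 (minus strand). CCT2 lies at chr12:69585334-69601570, CCT5 at chr5:10249921-10266412 and CCT7 at chr2:73233420-73253021, each on the plus strand, and CCT8 at chr21:29055805-29073797 on the minus strand.

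CCT2 (beta) and CCT5 (epsilon) rose by 1.33- and 1.30-fold. CCT2 gave 374, 356 and 359.5 CPM with DMSO and 492, 467 and 493 CPM with WFA (log2 fold change 0.41, SE 0.08, adjusted p in edgeR = 0.000752). CCT5 gave 520.4, 508 and 511 CPM with DMSO and 675, 637 and 686 CPM with WFA (log2 fold change 0.38, SE 0.09, adjusted p in edgeR = 0.0018). The DMSO libraries of both genes lay close together, with an SD of 9.21 CPM for CCT2 and 6.54 CPM for CCT5. With WFA the SD was 14.9 CPM for CCT2 and 25.7 CPM for CCT5, and these modest rises still exceeded the spread between replicates.

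CCT7 (eta) and CCT8 (theta) stood at the other end. CCT7 gave 344, 322 and 307 CPM with DMSO and 382, 388 and 371 CPM with WFA, a log2 fold change of 0.23 (SE 0.08, adjusted p in edgeR = 0.0339). The groups did not overlap, but the margin was narrow. The CCT7 call was lost under 6 of 13 alternatives, among them total counts in place of TMM (log2 fold change 0.15, edgeR adjusted p = 0.157) and the fits without DMSO replicate 2 (0.21, edgeR adjusted p = 0.105), DMSO replicate 3 (0.19, edgeR adjusted p = 0.103), WFA replicate 1 (0.23, edgeR adjusted p = 0.0653) or WFA replicate 2 (0.22, edgeR adjusted p = 0.0882). CCT8 gave 570.5, 621 and 544 CPM with DMSO and 560.3, 557 and 523 CPM with WFA, and the groups overlapped. Its log2 fold change was -0.08 (SE 0.09, 95% interval -0.27 to 0.11, adjusted p in edgeR = 0.474).

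**Figure D2:**
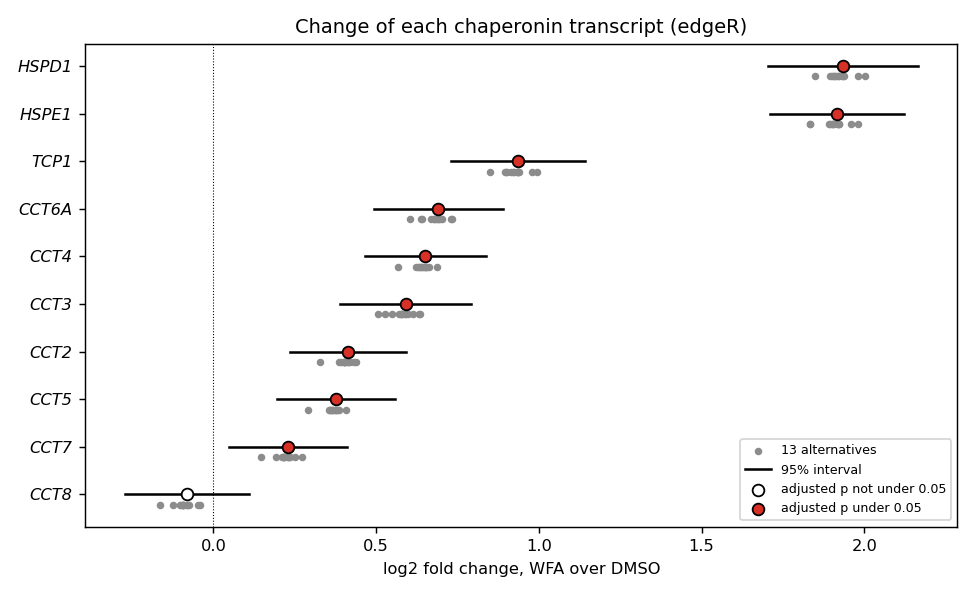
The log2 fold change of WFA over DMSO for each chaperonin gene from edgeR (circle), with its 95% interval (line) and the values under 13 alternatives (grey points). HSPD1 and HSPE1 lie near 1.9, the TRiC subunits run from 0.94 for TCP1 to -0.08 for CCT8, and the open circle marks the gene that was not called.

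**Figure D3:**
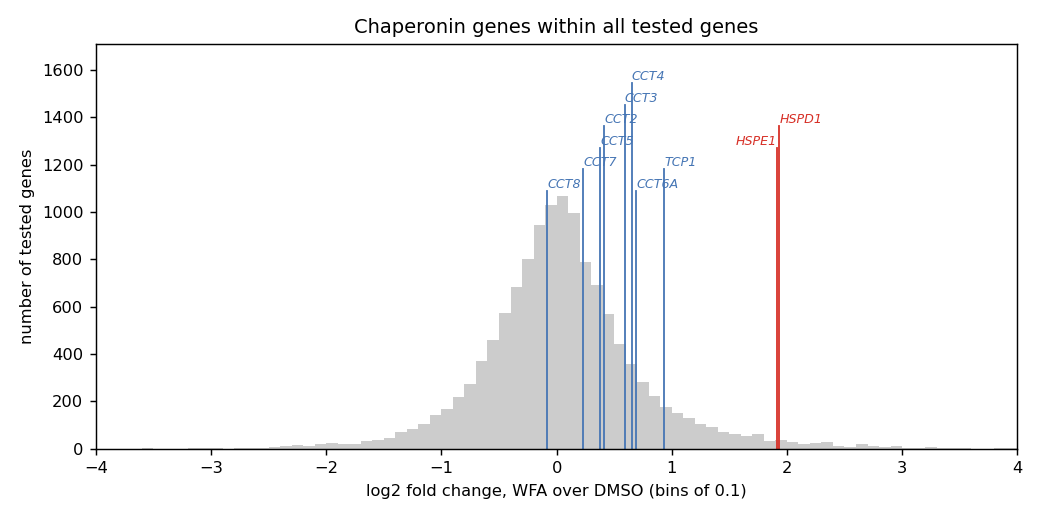
Number of tested genes in bins of 0.1 in log2 fold change (grey; the axis shows -4 to 4), with the 8 TRiC subunit genes (blue lines) and HSPD1 and HSPE1 (red lines) marked at their own values. Line heights are for legibility only. The red lines lie in the upper tail, where 2.05% and 2.12% of genes had larger values.

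The subunits of TRiC are used in equal number in the assembled complex, so the composition of their transcripts was examined within each library, where the scaling between libraries cancels. TCP1 went from 17.6% ± 0.563 to 23.1% ± 0.663 of the counts on the 8 genes (SD, n = 3 each). CCT8 went from 13.6% ± 1.05 to 8.82% ± 0.47 and CCT7 from 7.62% ± 0.157 to 6.14% ± 0.286 (SD, n = 3 each). CCT3 kept 15.0% ± 0.355 and 15.5% ± 1.18, a difference smaller than the spread of its WFA libraries.

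Measured against the mean of the other 7 subunits, TCP1 was higher with WFA by 0.53 on the log2 scale, CCT6A by 0.24 and CCT4 by 0.20. CCT8 differed by -0.64, CCT7 by -0.28, CCT5 by -0.11 and CCT2 by -0.07. For these 7 subunits the DMSO and WFA libraries did not overlap and the direction was shared by all 3 experiments. Each had p = 0.1 in the exact two-sided permutation test, the smallest value that 3 libraries against 3 allow, and 0.114 after Benjamini-Hochberg adjustment over the 8 subunits. In CPM, 29.6% of all tested genes had each WFA library above each DMSO library, and 28.5% had each below. No such share was computed for ratios. CCT3 had a difference of 0.13 with overlap (exact permutation p = 0.3). These 8 values are tied to each other, since a gain of one subunit lowers the others.

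**Figure D4:**
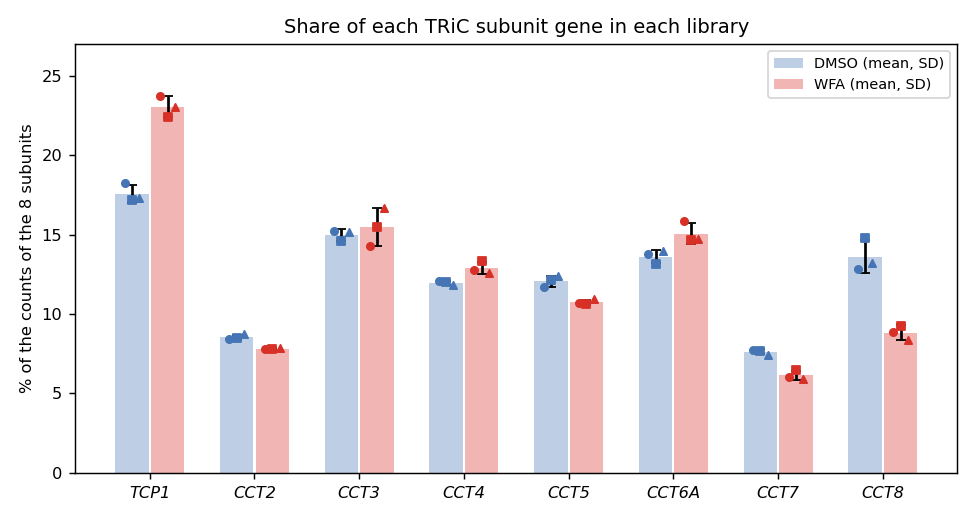
Share of each subunit gene in the summed counts of the 8 TRiC genes, in percent, with bars from 0 for the mean, error bars for the SD and points for the 3 libraries of DMSO (blue) and WFA (red). TCP1 reaches 23.1% with WFA and CCT8 goes from 13.6% to 8.82%.

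The order of the subunits by level was also compared between groups, as a description. Per kilobase of principal transcript, TCP1 (299 ± 21.5 CPM per kb), CCT3 (296 ± 16.2) and CCT8 (288 ± 19.5) led with DMSO and did not differ beyond their spread (SD, n = 3 each). With WFA, TCP1 stood first at 573 ± 31.4 and CCT3 second at 446 ± 34.8, followed by CCT6A at 344 ± 22.6 and CCT4 at 317 ± 3.63 CPM per kb (SD, n = 3 each). CCT8 was next at 273 ± 10.3. CCT2 (237 ± 7.28), CCT7 (199 ± 4.5) and CCT5 (181 ± 7) closed the order (SD, n = 3 each). The order depends on the length that is used. Per kilobase of bases not shared with another gene, CCT5, which shares 1757 of 3675 bases with an antisense gene, stood at 347 ± 13.4 with WFA (SD, n = 3), within the spread of CCT6A (344 ± 22.6) and no longer last. On that scale TCP1 stood at 356 ± 25.6 with DMSO, against 296 ± 16.2 for CCT3 and 288 ± 19.5 for CCT8 (SD, n = 3 each). Per kilobase of all annotated exons, CCT4 led the subunits with DMSO at 179.7 ± 8.64 and TCP1 stood at 152 ± 10.9, while TCP1 led with WFA at 290.3 ± 15.9 (SD, n = 3 each).

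The distance between the mitochondrial and the cytosolic chaperonin was tested within libraries as well. The log2 ratio of HSPD1 to the mean of the 8 subunits was 1.154 ± 0.0298 with DMSO and 2.61 ± 0.0962 with WFA (SD, n = 3 each). It was higher with WFA by 1.46, or 2.74-fold, and higher in 3 of 3 experiments. For HSPE1 the same measure was higher by 1.45. Exact permutation of the libraries (two-sided) gave 0.1 for each, the smallest p-value possible.

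Genes that work with chaperonins were taken as 9 lists of cofactors, clients and mitochondrial partners, with 61 of 66 genes tested. Of these, 10 passed the edgeR threshold upward and 16 downward. The median log2 fold change was -0.08, against 0.02 for all tested genes, and 50.5% of all tested genes were called in one direction or the other. With total counts in place of TMM the split on the lists was 7 higher and 23 lower, and over all tested genes 2763 higher and 3875 lower. With the replicate block the lists gave 13 higher and 18 lower, and all tested genes 3877 and 3708. The block leaves 2 residual degrees of freedom per gene, so its calls rest mostly on variance pooled over genes. Its edgeR adjusted p-value for HSPD1 was 1.01e-100, against 2.89e-09 in the main fit. In the main fit 3311 of the 12854 tested genes were called higher and 3178 lower.

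Among the other genes of the TRiC family, BBS12 rose from 4.64 ± 0.367 to 7.09 ± 0.774 CPM (SD, n = 3 each; log2 fold change 0.61, edgeR adjusted p = 0.0106). BBS12, BBS10 and MKKS encode chaperonin-like proteins that assemble the BBSome of cilia. BBS10 (log2 fold change -0.02) and MKKS (-0.06) were not called. CCT6B, the testis form of the zeta subunit, stood at 4.17 ± 0.47 CPM with DMSO and 5.17 ± 0.582 with WFA (SD, n = 3 each), far under CCT6A, and its log2 fold change of 0.32 was not called (edgeR adjusted p = 0.196).

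Prefoldin hands unfolded actin and tubulin to TRiC. Its list also holds the prefoldin-like genes URI1, UXT and PDRG1, and 8 of the 9 genes listed were tested. Of these, 2 passed the edgeR threshold, both lower. Over all tested genes 24.7% were called lower and 25.8% higher. The median log2 fold change of the list was 0.05. URI1, a prefoldin-like protein, fell by 0.60 on the log2 scale (edgeR adjusted p = 4.16e-05). PFDN2, a subunit of prefoldin itself, fell by 0.51 (edgeR adjusted p = 0.00131) and was named after its values were seen. PFDN6 was listed at 0 in each library, which does not show absence of the transcript.
Of the phosducin-like cofactors, PDCL3 fell by 0.79 on the log2 scale, from 25.8 ± 2.77 to 15.0 ± 2.3 CPM (SD, n = 3 each; edgeR adjusted p = 0.00024). PDCL and TXNDC9 were not called, with log2 fold changes of -0.10 and -0.20, and PDCL2 was listed at 0. Among the tubulin folding cofactors, which take tubulin over from TRiC, TBCD fell by 0.47 (edgeR adjusted p = 0.00941) and TBCE by 0.25 (edgeR adjusted p = 0.0283), while TBCA (0.02), TBCB (0.03) and TBCC (-0.22) were not called. TBCD lost its call without DMSO replicate 1 (edgeR adjusted p = 0.0665), and TBCE without DMSO replicate 2 (0.143), WFA replicate 1 (0.0728) or WFA replicate 2 (0.0565). TXNDC9 was called lower without WFA replicate 1 (edgeR adjusted p = 0.0418), and both TXNDC9 and TBCC with total counts in place of TMM (0.0352 and 0.0222).

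Of 21 known TRiC clients, 19 were tested, and 3 were higher and 5 lower with WFA, with a median log2 fold change of -0.08. Among all tested genes 25.8% were called higher and 24.7% lower. The smallest p-value upward was that of GNB2, a G protein beta subunit (log2 fold change 0.38, edgeR adjusted p = 0.00311), and downward that of CCNE1, cyclin E1 (log2 fold change -1.34, edgeR adjusted p = 2.91e-07). The remaining called clients were named after their values were seen and comprised TUBA1A and TUBA4A, which rose, and CDC20, TUBB, TUBB4B and TUBB6, which fell. Among the tubulin genes 3 calls depended on single libraries. TUBA1A lost its call without DMSO replicate 1, DMSO replicate 3 or WFA replicate 3 (edgeR adjusted p = 0.11, 0.112 and 0.205), with DESeq2 and with total counts. TUBB4B and TUBB6 lost theirs without DMSO replicate 1, DMSO replicate 2, WFA replicate 1 or WFA replicate 3 (edgeR adjusted p from 0.0601 to 0.169 for TUBB4B and from 0.0597 to 0.141 for TUBB6), and TUBB4B also with upper-quartile scaling. The actins, also named after their values were seen, had log2 fold changes of -0.08 for ACTB and 0.28 for ACTG1 and were not called (edgeR adjusted p = 0.63 and 0.0542). ACTG1 was called higher with the replicate block (edgeR adjusted p = 0.00248), with DESeq2, without the low-count filter and without DMSO replicate 2 (edgeR adjusted p = 0.0425).

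The mitochondrial folding genes around HSP60 went in both directions. HSPA9, the matrix HSP70, rose from 662 ± 26.1 to 839 ± 82.8 CPM (SD, n = 3 each; log2 fold change 0.34, edgeR adjusted p = 0.00829). Of 8 tested genes on this list 1 was higher and 4 were lower, and the median log2 fold change was -0.39. Among all tested genes 25.8% were called higher and 24.7% lower. TRAP1, the mitochondrial HSP90, fell by 0.69 on the log2 scale, from 121 ± 3.86 to 75.1 ± 8.51 CPM (SD, n = 3 each; edgeR adjusted p = 2.14e-05). The others that fell, named after their values were seen, were CLPB, a disaggregase of the intermembrane space, by 0.76, GRPEL1, the nucleotide exchange factor of HSPA9, by 0.54, and DNLZ, a chaperone of HSPA9, by 0.92. DNAJA3 was listed at 0 in each library, with the same limit as PFDN6.

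Among 8 mitochondrial proteases, LONP1, which degrades misfolded matrix proteins, rose by 0.72 on the log2 scale (edgeR adjusted p = 8.36e-05). AFG3L2 fell by 0.74 (edgeR adjusted p = 3.14e-06) and CLPX by 0.29 (edgeR adjusted p = 0.0126), and CLPX was named after its values were seen and lost its call without DMSO replicate 3 (edgeR adjusted p = 0.0535). The 4 transcription factors linked to mitochondrial stress each rose in edgeR's test, by which 25.8% of all tested genes were called higher. DDIT3 (CHOP) changed most, from 30.5 ± 1.62 to 96.7 ± 30.4 CPM (SD, n = 3 each; log2 fold change 1.66, edgeR adjusted p = 1.08e-06), with a wide spread between WFA libraries. ATF4, CEBPB and ATF5 had log2 fold changes of 0.45, 0.43 and 0.33 (edgeR adjusted p = 0.00373, 0.0235 and 0.0244). CEBPB lost its call without DMSO replicate 1 or 2 or WFA replicate 3 (edgeR adjusted p from 0.0608 to 0.132), and ATF5 without any one library other than WFA replicate 1 (from 0.0512 to 0.103). Both also lost it with total counts in place of TMM (edgeR adjusted p = 0.0675 and 0.0896). The heat shock factors HSF1 and HSF2 had log2 fold changes of -0.13 and -0.12 and were not called (edgeR adjusted p = 0.323 and 0.349).

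**Figure D5:**
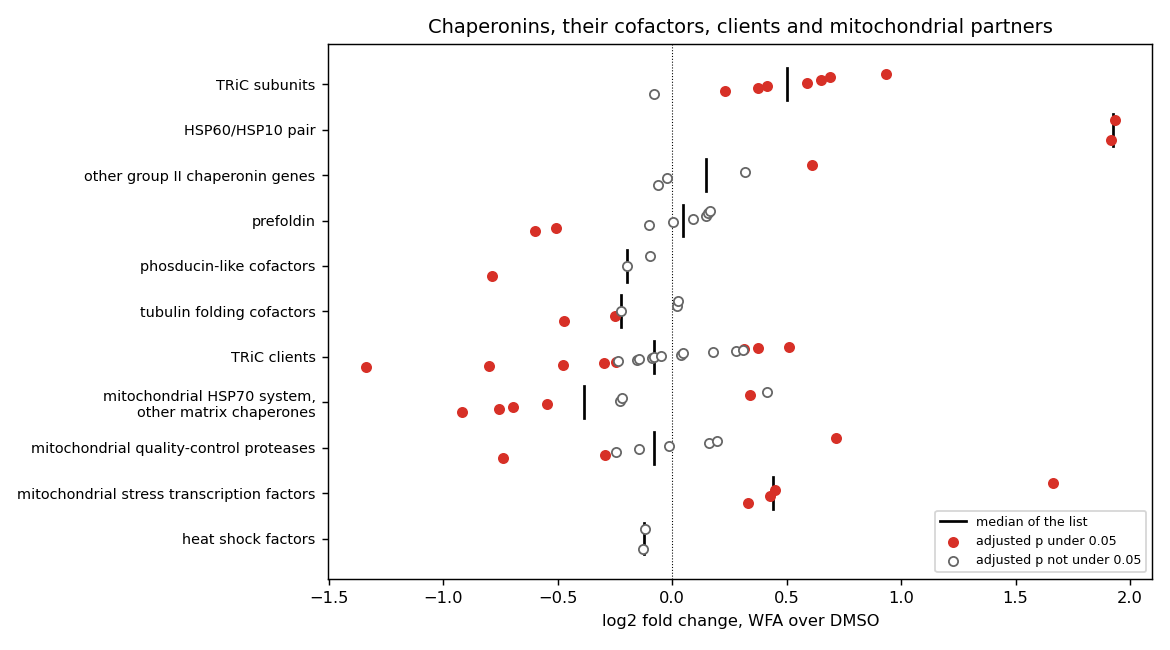
The log2 fold change of each tested gene (points, filled when the edgeR adjusted p-value was under 0.05) in the TRiC subunits, the HSP60/HSP10 pair and the 9 lists of cofactors, clients and mitochondrial partners, with the median of each list as a vertical bar. The pair has a median of 1.92 and the TRiC subunits of 0.50. The list of prefoldin and prefoldin-like genes has 0.05, the TRiC clients -0.08 and the mitochondrial HSP70 system -0.39.

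Genes with a like pattern over the 6 libraries were sought by Pearson's r of log2 CPM, as a description, since libraries of one group share the treatment. The mean of HSPD1 and HSPE1 was followed most closely by HSP90AA1, DNAJA1 and SARAF, each with r = 1.00 to the second decimal and log2 fold changes of 2.56, 2.20 and 1.20. HSP90AA1 encodes the inducible cytosolic HSP90 and DNAJA1 an HSP40 cochaperone. The mean of the 8 TRiC subunits was followed most closely by C1orf198, GPX8 and CRYZ. Their log2 fold changes were 1.04, 1.87 and 2.42, against a median of 0.50 for the subunits, since r does not measure the size of a change. Of the 12854 tested genes, with the 10 members left out, 1410 reached an r over 0.95 for the pair and 1319 for the TRiC mean. A high r therefore does not single out the genes named.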

How the data were processed

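RNA-seq counts of 6 THP1 libraries (3 DMSO, 3 WFA) were used. The authors deposited whole-number read counts per gene symbol, without normalization. Per the submitters' processing notes, bcl2fastq 2.19, Trimmomatic, Bowtie2, Picard, featureCounts and DESeq2 were used with build hg38, with settings not given in the sources used here. Scaled counts and the authors' own comparison (fold changes, p-values, dispersions) stand in the same table and were not used. Of the 26485 symbols, 28 look like dates and 2 occur more than once.

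Counts were compared with edgeR 4.0.16 in R 4.3.3 (TMM, filterByExpr with a minimum count of 10, quasi-likelihood test, Benjamini-Hochberg adjustment over all tested genes, threshold 0.05). Ratios within libraries were compared by exact two-sided permutation tests. Replicate numbers share an experiment date code in the labels, and same-numbered libraries deviated together from their group means (correlations of 0.217, 0.333 and 0.245 across genes). The fit was tested on simulated data. Alternatives were a replicate block, DESeq2 1.42.0, other scalings, no filter, a robust fit and leaving out each library. Lengths and coordinates came from GENCODE 29 and promoters from RefSeq (GRCh38.p14), and alternative lengths were added after seeing the data. The TruSeq RNA v2 kit does not mark strand, so reads on overlapping genes of opposite strands cannot be told apart. Depth was 11006035 to 13872810 counts per library. Intervals come from edgeR's fit, which combines a gene's own spread between these libraries with that of other genes. The latter had a median weight of 10.81 degrees of freedom, against 4 for the gene's own libraries.

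The members and lists were chosen with earlier results of these data known. The genes named are the 10 members, the smallest p-value in each direction on each list, each gene of lists with 5 genes or fewer, genes that share reads with a member, list genes at 0, called marker genes, the 3 genes most like each pattern, and genes said to be named after their values were seen.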

Additional observations from a re-analysis of the deposited data

How the results depend on the processing

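Each of the 10 log2 fold changes kept its direction under 13 alternatives, and 124 of 130 values also kept their side of the threshold. The other 6 were those of CCT7, so that 6 or 7 TRiC subunits were called higher. CCT7 also lost its call without the low-count filter (0.22, edgeR adjusted p = 0.0673). The lowest log2 fold change fitted was 1.85 for HSPD1 and 1.83 for HSPE1. Total counts in place of TMM moved the median of all genes from 0.02 to -0.06. The change in the log2 ratio of HSPE1 to HSPD1 was between -0.070 and 0.032 with each library left out, and changed sign. Blocking on replicate number gave log2 fold changes of 1.93 for HSPD1, 1.92 for HSPE1, 0.94 for TCP1, 0.23 for CCT7 and -0.08 for CCT8. The replicate block changed no call of the 10 genes. The block and the fit without the filter leaned on variance pooled over genes. For HSPD1 they gave edgeR adjusted p = 1.01e-100 and 4.955e-47, against 2.89e-09 in the main fit. A call kept or gained in these fits is therefore a weak check. Among the other genes examined under the alternatives, the block changed the call of ACTG1 alone. The marker genes, the CCT6A pseudogenes and the genes with a like pattern were not examined in this way. With total counts the log2 fold changes of TBCA and TBCB turned to -0.062 and -0.058. With single libraries left out, uncalled values near 0 changed sign, with ranges of -0.14 to 0.15 for BBS10, -0.14 to 0.050 for MKKS, -0.19 to 0.012 for PDCL, -0.038 to 0.12 for TBCA, -0.050 to 0.064 for TBCB and -0.094 to 0.0033 for ACAT2. Paired by experiment, the within-library ratios gave exact sign-flip permutation p-values of 0.25 or more, the smallest that 3 pairs allow. Levels per kilobase depended on the length used, which limits comparisons between genes and not between groups.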
